A study of Mus musculus with 16 samples.

Results

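The homeobox genes Dlx1, Dlx2, Dlx3, Dlx5, Dlx6, Msx1, Msx2, Alx1 and Alx4 were followed in bulk RNA-seq of mouse embryonic salivary glands. They were chosen by name as factors that pattern the embryonic face, and all 9 were found among the 48709 genes of the deposited count table. The libraries were made from wild-type ICR embryos, an outbred strain, at E13. They formed 4 groups of 4 libraries: parotid epithelium, submandibular epithelium, parotid mesenchyme and submandibular mesenchyme. The labels describe the libraries of a group as independent biological replicates but do not say how many embryos each one pooled, so p-values measure the spread between these libraries. The series concerns recombination of salivary tissues, and the libraries compared here were made from the separated layers of each gland. Every group was wild type, and no treatment is named for any of them. The series' design text also mentions glands kept in culture, whereas the sample labels speak of tissue harvested at E13.

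Salivary glands form where oral epithelium grows into mesenchyme that is derived from the neural crest of the first pharyngeal arch. In that arch the DLX homeodomain proteins are expressed in nested domains: Dlx1 and Dlx2 reach through the upper and lower jaw parts, whereas Dlx5 and Dlx6 mark the lower part and are induced there by endothelin 1 acting through its receptor Ednra. MSX proteins are homeodomain repressors that respond to BMP signals in facial mesenchyme and teeth, and ALX proteins are paired-type homeodomain factors of frontonasal mesenchyme, skull and limb.

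Total gene counts per library ranged from 21307466 to 23885698 in parotid and from 19090077 to 27646844 in submandibular epithelium, and from 19080629 to 25846015 in parotid and from 16912258 to 18583164 in submandibular mesenchyme. Levels are the authors' deposited CPM values, which are counts scaled to the size of each library. The layer labels fitted their markers: all 20 epithelial identity genes were higher in epithelium than in mesenchyme in both glands, and all 20 mesenchymal identity genes were lower. Summed over the mesenchymal list, the epithelial level was 1.56% of the mesenchymal level in parotid and 2.08% in submandibular gland. Some libraries stood apart. Parotid epithelium 3 held 19 genes at 1 CPM or more and at 8 or more times the level of every other library, among them the placental genes Tpbpa, Prl3b1 and Psg21. Parotid epithelium 4 held 9 such genes, among them Alb and Apoa2, which liver makes. Submandibular mesenchyme 4 held 7, among them the neutrophil genes S100a8, S100a9, Ngp and Ltf and the member Alx1. The skeletal muscle markers of parotid mesenchyme 4 summed to 396 CPM, against 1461 to 1669 CPM in the other 3 parotid mesenchymes. These genes were picked out after their values were seen, and the members that moved with such libraries are given below with those values. Gland also went with the number in the sample label, which runs from 26 to 33 for parotid and from 9 to 16 for submandibular libraries. What that number stands for is not given in the sources used here, and it cannot be told apart from the gland.

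The starts of 4 members were at hand in RefSeq (assembly GRCm38.p6), each as 250 bases before and 50 bases after the transcript start. They are shown because they cover a linked pair whose genes differed in balance between the glands (Dlx1 and Dlx2) and the MSX genes, of which Msx1 differed between the mesenchymes and Msx2 was near absent. Capitals mark matches, on either strand, to TAATTA or TAATTG (cores bound by many homeodomain proteins), TATAAA (the TATA box), CCAAT (the core bound by NF-Y) and GGGCGG (the GC box). The windows are chr2:71529195-71529494 on the plus strand for Dlx1, chr2:71546705-71547004 on the minus strand for Dlx2, chr5:37824536-37824835 on the minus strand for Msx1 and chr13:53472731-53473030 on the minus strand for Msx2. The sequences read 5′ to 3′ along the transcribed strand.
Dlx1: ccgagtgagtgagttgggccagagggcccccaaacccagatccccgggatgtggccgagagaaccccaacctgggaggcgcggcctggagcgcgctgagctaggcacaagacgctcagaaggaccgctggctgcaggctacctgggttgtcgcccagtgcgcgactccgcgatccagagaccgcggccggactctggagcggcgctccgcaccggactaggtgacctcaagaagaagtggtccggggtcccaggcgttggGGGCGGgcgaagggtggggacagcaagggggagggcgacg
Dlx2: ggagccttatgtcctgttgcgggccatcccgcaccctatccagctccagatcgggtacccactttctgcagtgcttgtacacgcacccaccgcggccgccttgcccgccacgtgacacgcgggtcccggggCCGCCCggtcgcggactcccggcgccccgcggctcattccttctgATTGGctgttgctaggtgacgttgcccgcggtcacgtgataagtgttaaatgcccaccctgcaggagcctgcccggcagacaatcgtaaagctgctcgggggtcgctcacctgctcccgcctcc
Msx1: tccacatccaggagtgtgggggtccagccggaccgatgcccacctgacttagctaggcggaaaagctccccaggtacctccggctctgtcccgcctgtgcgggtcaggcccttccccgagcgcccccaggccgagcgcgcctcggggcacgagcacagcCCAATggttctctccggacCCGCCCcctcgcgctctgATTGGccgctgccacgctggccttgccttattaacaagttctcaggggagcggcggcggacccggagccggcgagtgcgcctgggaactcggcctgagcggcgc
Msx2: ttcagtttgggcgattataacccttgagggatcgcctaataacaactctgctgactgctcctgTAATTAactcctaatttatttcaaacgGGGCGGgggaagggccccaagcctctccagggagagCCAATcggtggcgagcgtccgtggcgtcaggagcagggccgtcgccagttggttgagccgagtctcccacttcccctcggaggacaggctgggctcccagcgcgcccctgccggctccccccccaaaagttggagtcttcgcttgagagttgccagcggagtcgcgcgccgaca
All 4 windows held 1 GC box, a motif found in 35.7% of the 32851 promoters in the same table. CCAAT was found 1 time in Dlx2, 2 times in Msx1 and 1 time in Msx2, against 37.4% of all promoters with at least 1 match. TAATTA occurred 1 time, in Msx2, and is held by 5.29% of all promoters. None of the 4 held TAATTG, which 8% of all promoters hold, or TATAAA, which 13.6% hold. The GC content was 69.3% for Dlx1, 66.3% for Dlx2, 70% for Msx1 and 61% for Msx2, and the median of all promoters was 52.7%. These matches describe the letters of the windows and do not show binding.

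Between the glands, more members were called in mesenchyme than in epithelium. The gland difference itself was called unequal between the layers for 1 of the 8 tested members, Alx4, where 20.9% of all genes were called. Most tested members averaged under 1 CPM in both epithelia, so a missing call there says little about equality. For Dlx6, with 6 and 1 counts in parotid and submandibular epithelium, the SE of that test was 3.28 (log2). In mesenchyme Dlx3, Dlx5, Dlx6 and Msx1 were higher in parotid than in submandibular mesenchyme, and Alx4 was lower. That is 5 of the 8 members tested at an adjusted p under 0.05 (quasi-likelihood test of edgeR, Benjamini-Hochberg adjustment over all 18191 genes), where 34.5% of all genes tested were called, 20.8% higher and 13.7% lower in parotid. The libraries of the glands did not overlap for 6 of the 8, the same 5 and Dlx2, against 36.4% of all genes. In the epithelium 1 of 8 was called, Dlx5, which was higher in parotid, against 20.9% of all genes called, 11.2% higher and 9.72% lower, and it was also the only one of the 8 without overlap, against 20.4% of all genes. The ninth member, Alx1, did not pass the filter on low counts and has no test. The median log2 difference of the tested members was 0.64 in mesenchyme and -0.03 in epithelium, and that of all genes tested was 0.04 and -0.0016. Library scaling moved the direction of calls over all genes in the mesenchyme comparison: 60.3% of the called genes were higher in parotid with TMM scaling, 46.2% with upper quartile scaling and 37.4% with library totals alone. The 5 member calls kept their directions under each of these. In tissue of mixed cells, fewer cells of a type and less RNA per cell cannot be told apart.

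**Figure D1:**
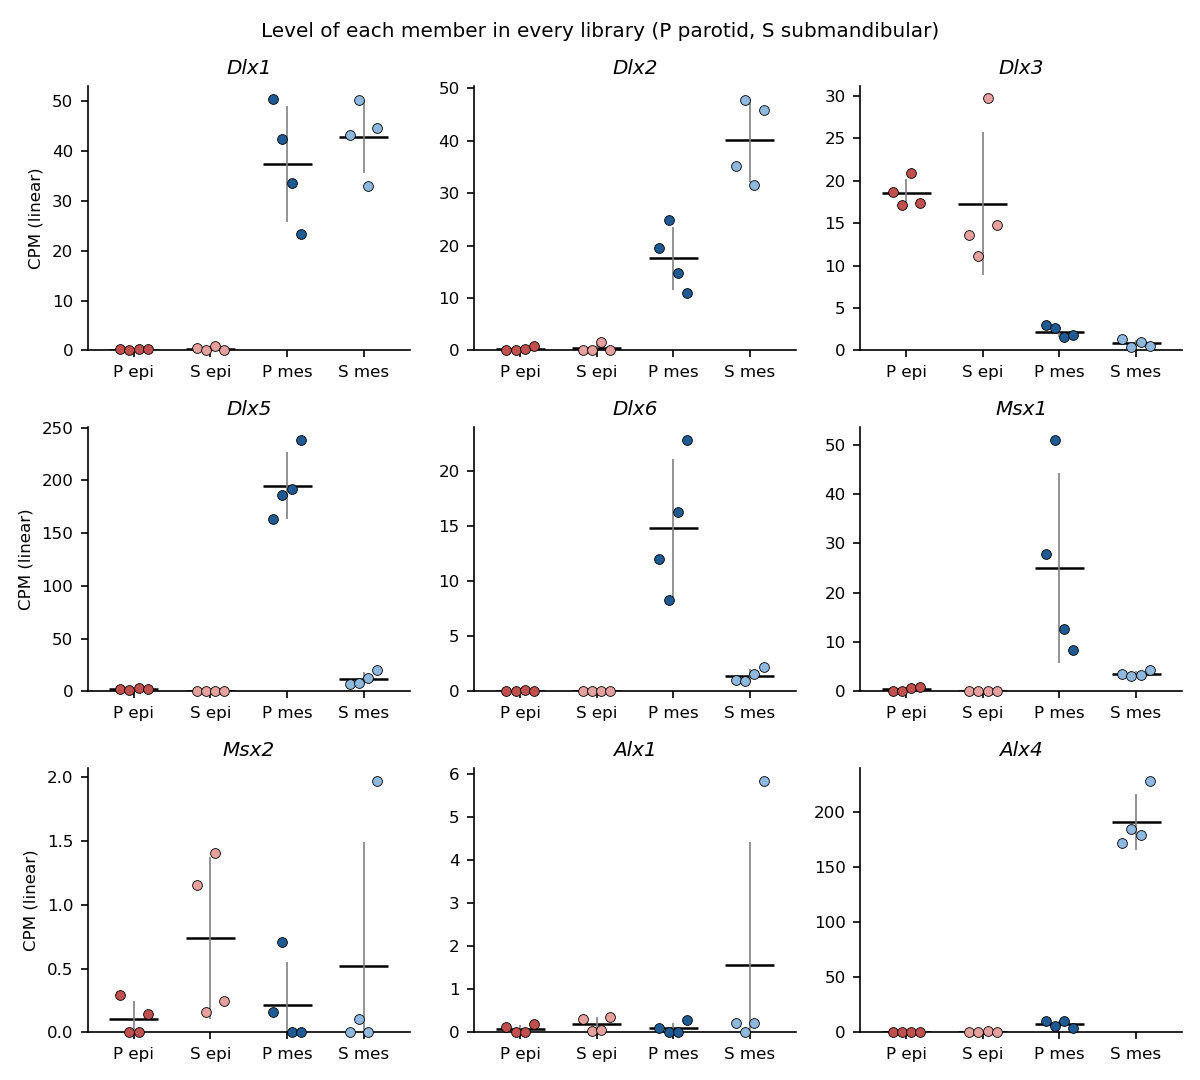
Level of each of the 9 members in CPM (linear axes that start at 0 and differ between panels) in parotid epithelium, submandibular epithelium, parotid mesenchyme and submandibular mesenchyme. Points are libraries, black lines are means and grey bars are 1 SD, cut at 0. Dlx5 and Alx4 show opposite patterns in the mesenchymes, and Dlx3 is the member highest in epithelium.

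**Figure D2:**
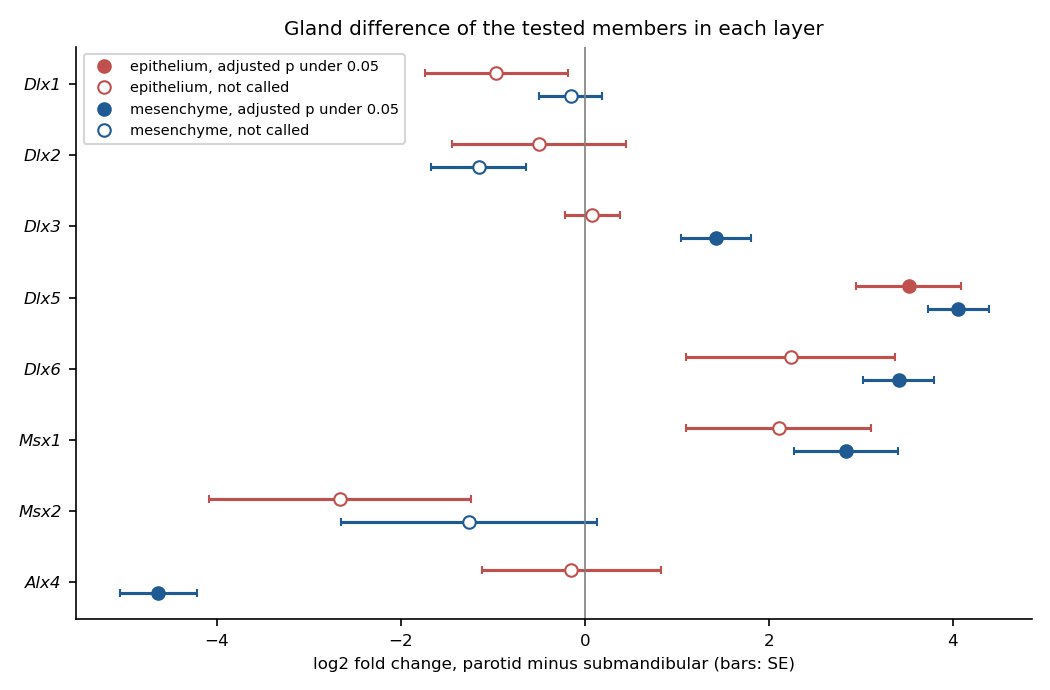
Log2 fold change of the 8 tested members, parotid minus submandibular, in epithelium (red) and mesenchyme (blue), with 1 SE. Filled points have an adjusted p under 0.05. Alx4 in mesenchyme lies lowest, at -4.64, and Dlx5 in mesenchyme highest, at 4.06.

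Dlx5 encodes a homeodomain activator that is needed together with Dlx6 for lower jaw identity in mouse. It lies next to Dlx6 at chr6:6877805-6882085 on the minus strand (GRCm38, GENCODE M21, as for the positions below). It had 164, 186, 192 and 239 CPM in the 4 parotid mesenchymes, against 7.06, 7.94, 12.8 and 20.3 CPM in the submandibular mesenchymes. The lowest parotid library was far above the highest submandibular one. The fitted difference was 4.06 ± 0.33 (log2, SE), or 16.7-fold higher in parotid (edgeR, adjusted p = 2.1e-07). In epithelium Dlx5 had 2.33, 1.23, 2.79 and 2.11 CPM in parotid, against 0.14, 0.123, 0 and 0.386 CPM in submandibular gland. Here too the groups did not overlap, and the difference was 3.52 ± 0.57 (log2, SE; edgeR, adjusted p = 0.00049). The test of whether the gland difference was unequal in the layers gave -0.54 ± 0.84 (log2, SE; edgeR, adjusted p = 0.716). The epithelial level was 1.08% of the mesenchymal level in parotid and 1.34% in submandibular gland, below the 1.56% and 2.08% of the summed mesenchymal identity list. Abundant genes weigh most in that sum. The median log2 layer difference of the list was -6.48 in parotid and -6.81 in submandibular gland, against -6.50 and -5.96 for Dlx5. The part of mesenchymal RNA in the epithelial values was not tested.

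Dlx6 encodes the partner of Dlx5 and lies 9236 bases away from it on the plus strand, at chr6:6863334-6868568. It had 12, 8.28, 16.3 and 22.9 CPM in parotid mesenchyme, against 1, 0.98, 1.55 and 2.2 CPM in submandibular mesenchyme. All parotid libraries were again above all submandibular ones. The difference was 3.41 ± 0.38 (log2, SE; edgeR, adjusted p = 3.42e-06). In epithelium it was almost absent, with 6 counts in all in parotid and 1 count in all in submandibular gland. Per kb of exon, Dlx5 exceeded Dlx6 by 10.9 to 23.6 times in parotid mesenchyme and by 7.4 to 9.71 times in submandibular mesenchyme. These ranges did not overlap, and with 4 libraries against 4 the exact two-sided permutation test gave its smallest possible p, 0.0286 (also 0.0286 after adjustment over the 6 ratios tested, which were picked with the values known).

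Dlx6os1, also called Evf2, is a long noncoding RNA read from the strand opposite to Dlx6 and known in mouse forebrain to act on the Dlx5 and Dlx6 locus. It is not one of the 9 members. It had 68.6, 96.8, 155 and 154 CPM in parotid mesenchyme, against 2.21, 3.2, 7.26 and 5.52 CPM in submandibular mesenchyme. The groups were far apart, by 4.74 ± 0.46 (log2, SE; edgeR, adjusted p = 1.52e-06). The kit does not mark the strand of a read, but in GENCODE M21 the exons of Dlx6os1 and Dlx6 share 0 bases. Another gene on the strand opposite to Dlx6, Dlx6os2, shares 104 exon bases with Dlx6, 4.38% of the exon length of Dlx6. Dlx6os2 had 86 counts in all. Per kb, Dlx6os1 exceeded Dlx6 by 2.63 to 5.37 times in parotid mesenchyme and by 1.01 to 2.15 times in submandibular mesenchyme (exact two-sided permutation test, p = 0.0286, the smallest it can give). In epithelium Dlx6os1 averaged 0.531 ± 0.487 CPM in parotid, against 0.0479 ± 0.0742 CPM in submandibular gland (SD, n = 4 each), with overlapping libraries and an adjusted p of 0.0483 (edgeR).

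**Figure D3:**
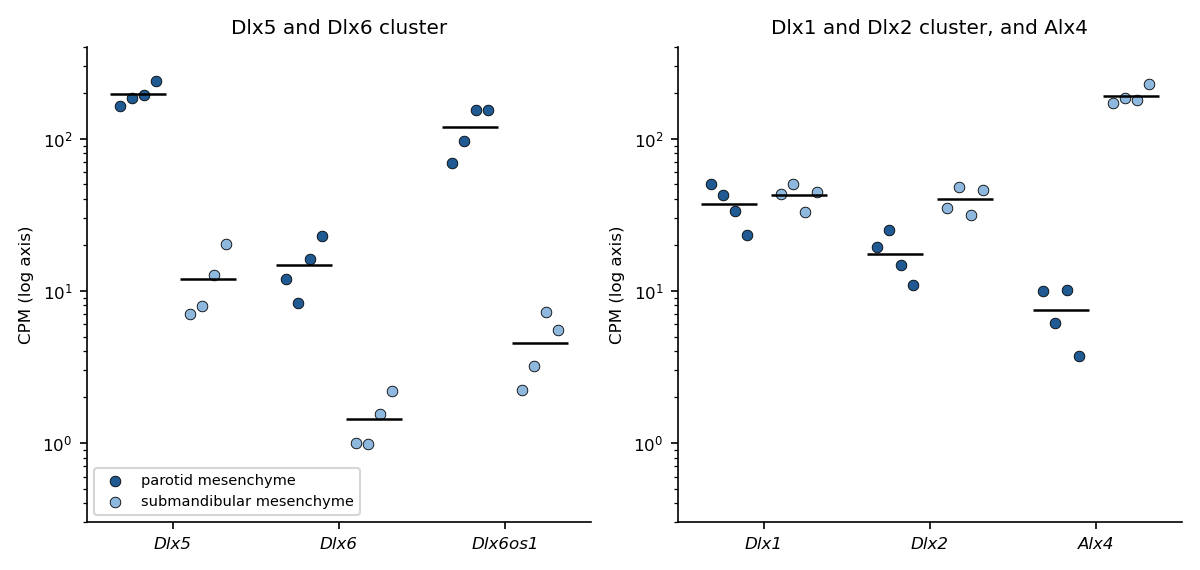
CPM on a log axis in the 4 parotid mesenchymes (dark) and the 4 submandibular mesenchymes (light), with means as black lines. On the left, Dlx5, Dlx6 and Dlx6os1 are all higher in parotid; on the right, the Dlx1 libraries overlap, those of Dlx2 do not, and Alx4 is 3.74 to 10.1 CPM in parotid, against 172 to 229 CPM in submandibular mesenchyme.

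Dlx1 and Dlx2, the pair with the widest domain in the first arch, lie 9426 bases apart (chr2:71528113-71533981 on the plus strand and chr2:71543408-71546754 on the minus strand) and did not follow Dlx5 and Dlx6. Dlx1 had 50.5, 42.3, 33.5 and 23.3 CPM in parotid mesenchyme, against 43.1, 50.2, 32.9 and 44.6 CPM in submandibular mesenchyme. The ranges overlapped, and the difference of -0.15 (log2) had a 95% interval from -0.91 to 0.60 (edgeR, adjusted p = 0.77). Dlx2 had 19.5, 25, 14.8 and 10.9 CPM in parotid mesenchyme, against 35.1, 47.7, 31.6 and 45.9 CPM in submandibular mesenchyme. Every parotid library was below every submandibular one, yet the difference of -1.15 ± 0.52 (log2, SE) did not pass the threshold (edgeR, adjusted p = 0.0991). It passed with limma-voom (adjusted p = 0.00136), in edgeR fits to the 8 mesenchyme libraries alone (adjusted p = 0.00278) and without submandibular epithelium 3 (adjusted p = 0.0169). Over the 26 alternative settings its adjusted p ran from 0.00136 to 0.329.

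The balance within this pair also differed. Per kb of exon, Dlx1 stood at 0.896 to 1.37 times Dlx2 in parotid mesenchyme and at 0.514 to 0.65 times Dlx2 in submandibular mesenchyme. These ranges did not overlap, which with 4 libraries against 4 fixes the exact two-sided permutation p at its smallest value, 0.0286. The ratio was picked with the values known. The antisense RNA Dlx1as shares 335 exon bases with Dlx1, which are 6.21% of the exon length of Dlx1 and 20.6% of that of Dlx1as. Reads of these genes cannot be told apart there, and Dlx1 had 6292 counts in all, against 434 for Dlx1as. Dlx1as averaged 1.24 ± 0.347 CPM in parotid mesenchyme, against 2.26 ± 0.594 CPM in submandibular mesenchyme (SD, n = 4 each), a difference of -0.83 ± 0.31 (log2, SE; edgeR, adjusted p = 0.0457) with overlapping libraries. In epithelium Dlx1 reached at most 0.938 CPM and Dlx2 at most 1.51 CPM, both in submandibular epithelium 3, and Dlx2 stayed under 1 CPM in the other 7 epithelial libraries. The mesenchymal identity list was also highest there among the submandibular epithelia, at 606 CPM against 217 to 499 CPM in the other 3. In the parotid epithelia that list summed to 367 to 732 CPM, with Dlx1 at most 0.291 CPM and Dlx2 at most 0.767 CPM. What part mesenchymal RNA had in the epithelial Dlx1 and Dlx2 values was not tested.

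Dlx3 (chr11:95120119-95125296, plus strand), needed in mouse for placenta and for hair, was the member highest in epithelium. It had 18.7, 17.2, 20.9 and 17.4 CPM in parotid epithelium, against 13.6, 11.2, 29.7 and 14.7 CPM in submandibular epithelium. The submandibular range enclosed the parotid one, and the difference was 0.08 (log2), with a 95% interval from -0.57 to 0.73 (edgeR, adjusted p = 0.881). The highest parotid value came from parotid epithelium 3, the library with placental genes, and the highest submandibular value from submandibular epithelium 3. Markers of stratified oral epithelium summed to 225 to 317 CPM in submandibular epithelium, highest in library 3, against 46.1 to 51.9 CPM in parotid epithelium. Of 8 tested, 7 were lower in parotid and 0 higher, against 9.72% and 11.2% of all genes. The part of RNA from such epithelium or other tissue in the Dlx3 values was not tested. In mesenchyme Dlx3 had 2.97, 2.62, 1.53 and 1.78 CPM in parotid, against 1.37, 0.413, 1.01 and 0.563 CPM in submandibular gland. The groups did not overlap, and the difference was 1.43 ± 0.38 (log2, SE; edgeR, adjusted p = 0.00733); with limma-voom its adjusted p was 0.0539. The mesenchymal level was 12% of the epithelial level in parotid and 4.85% in submandibular gland, against 0.866% and 1.72% for the summed epithelial identity list.

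Dlx4, the neighbour of Dlx3 on chromosome 11 at 15150 bases and not among the 9, had the same layer pattern. It averaged 7.2 ± 0.692 CPM in parotid epithelium, against 4.55 ± 1.48 CPM in submandibular epithelium (SD, n = 4 each), with overlapping libraries and a difference of 0.63 ± 0.27 (log2, SE; edgeR, adjusted p = 0.106). In mesenchyme it stayed at 0.234 to 0.49 CPM in parotid, against 0.0534 to 0.316 CPM in submandibular gland. Per kb, Dlx3 exceeded Dlx4 by 2.84 to 3.9 times in parotid epithelium and by 2.79 to 8.12 times in submandibular epithelium. These ranges overlapped.

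Read per kb of exon, the DLX family was led by Dlx5 in parotid mesenchyme, by Dlx2 in submandibular mesenchyme and by Dlx3 in the epithelium of both glands. In parotid mesenchyme Dlx5 made up 80.6 ± 3.71% of the summed DLX signal, Dlx1 6.73 ± 2.68%, Dlx2 5.93 ± 2.38% and Dlx6 5.77 ± 1.88% (SD, n = 4). In submandibular mesenchyme Dlx2 led with 49.7 ± 4.24%, followed by Dlx1 with 28.3 ± 4.17%, Dlx5 with 18.5 ± 7.36% and Dlx6 with 2.12 ± 0.684% (SD, n = 4). The lead of Dlx5 in the parotid libraries and that of Dlx2 in the submandibular ones exceeded the spread, whereas the shares of Dlx1, Dlx2 and Dlx6 in parotid and those of Dlx1 and Dlx5 in submandibular mesenchyme overlapped between libraries. In parotid epithelium Dlx3 made up 68.4 ± 3.19%, Dlx4 21.3 ± 2.3% and Dlx5 8.83 ± 2.04%. In submandibular epithelium Dlx3 made up 78.7 ± 5.51%, Dlx4 18 ± 6.32% and Dlx5 1.01 ± 0.881%. The summed level per kb was 106.5 ± 12.4 CPM in parotid mesenchyme, against 28.3 ± 5.06 CPM in submandibular mesenchyme, and 10.4 ± 0.992 CPM in parotid epithelium, against 8.34 ± 3.59 CPM in submandibular epithelium (SD, n = 4 each).

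**Figure D4:**
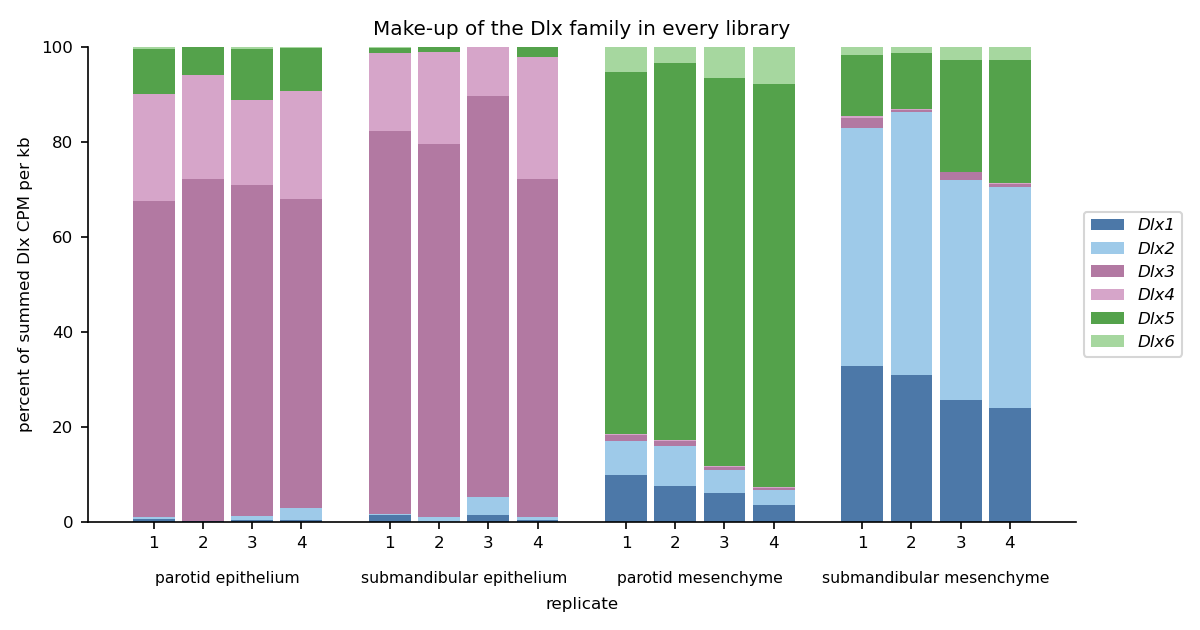
Share of each of the 6 DLX genes in the summed DLX level per kb of exon, in percent, 1 bar per library and 4 bars per group. Dlx3 and Dlx4 (purple) fill the epithelium, Dlx5 (dark green) fills parotid mesenchyme, and Dlx1 and Dlx2 (blue) fill most of submandibular mesenchyme.

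Msx1 (chr5:37820485-37824583, minus strand), a homeodomain repressor needed in mouse for teeth and palate, was uneven in parotid mesenchyme. It had 27.8, 51.1, 12.7 and 8.42 CPM there, against 3.58, 3.1, 3.31 and 4.33 CPM in submandibular mesenchyme. The parotid libraries spread over 6.06-fold and all lay above the submandibular ones, which spread over 1.4-fold. The difference was 2.84 ± 0.56 (log2, SE; edgeR, adjusted p = 0.000981), and with each library left out in turn it ran from 2.22 to 3.14. Markers of skeletal muscle were also higher in parotid mesenchyme. Of 11 tested, 10 were called higher, against 20.8% of all genes, with a median log2 difference of 2.58. The 12 genes of that list summed to 1669, 1619, 1461 and 396 CPM in the same 4 parotid mesenchymes. In the submandibular mesenchymes they summed to 184, 253, 393 and 208 CPM, and 11 of the 12 were at 1 CPM or more in both mesenchymes. Parotid library 4 was lowest in both, library 2 had the most Msx1 and library 1 had the most muscle signal. Parotid library 3 had 12.7 CPM of Msx1 with 1461 CPM of muscle signal. Submandibular library 3 had the most muscle signal of its group, and library 4 the most Msx1. Over all 16 libraries the 3 genes closest in profile to Msx1 were the muscle genes Chrng, Trim55 and Neb, at 0.63, 0.67 and 0.67 log2 units. The part of muscle cells in the Msx1 difference was not tested. In epithelium Msx1 had 0.0832, 0.0455, 0.614 and 0.91 CPM in parotid, against 0.14, 0.0782, 0 and 0.105 CPM in submandibular gland. These overlapped and did not pass the threshold (edgeR, adjusted p = 0.15).

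Msx2 (chr13:53466884-53473074, minus strand), which acts with Msx1 in mouse skull and skin appendages, was at or under 1.97 CPM in every library. It had 0.291, 0, 0 and 0.144 CPM in parotid epithelium, against 1.16, 0.156, 1.41 and 0.246 CPM in submandibular epithelium. It had 0.162, 0.708, 0 and 0 CPM in parotid mesenchyme, against 0, 0.103, 0 and 1.97 CPM in submandibular mesenchyme. Submandibular mesenchyme 4 was the highest of the 16 and held 35 of the 37 Msx2 counts of its group. No comparison passed the threshold in the fit to all libraries (edgeR, adjusted p = 0.202 between the epithelia and 0.529 between the mesenchymes). Without submandibular mesenchyme 4, the difference between submandibular epithelium and mesenchyme was 4.25 (log2; edgeR, adjusted p = 0.0241), against 0.60 (adjusted p = 0.683) with it. The third mouse MSX gene, Msx3, had 4, 1, 3 and 1 counts in all in parotid epithelium, submandibular epithelium, parotid mesenchyme and submandibular mesenchyme.

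Alx4 (chr2:93642384-93681339, plus strand), known in mouse for limb and skull patterning, had the largest fitted gland difference of the 8 tested members. It had 10, 6.1, 10.1 and 3.74 CPM in parotid mesenchyme, against 172, 185, 179 and 229 CPM in submandibular mesenchyme. The highest parotid library was far below the lowest submandibular one. The difference was -4.64 ± 0.42 (log2, SE), which is 24.9-fold lower in parotid (edgeR, adjusted p = 8.08e-07). In epithelium Alx4 had 0.0416, 0.637, 0.0945 and 0.192 CPM in parotid, against 0.245, 0, 0.886 and 0.0702 CPM in submandibular gland. Those overlapped, with a difference of -0.14 ± 0.97 (log2, SE; edgeR, adjusted p = 0.938). The gland difference in epithelium minus that in mesenchyme was 4.49 ± 1.18 (log2, SE; edgeR, adjusted p = 0.0135), the only such call among the 8 members tested, where 20.9% of all genes were called, 8.67% as higher and 12.2% as lower. Without parotid epithelium 2, the highest of its group, it was 3.37 (adjusted p = 0.175), and over the 25 alternatives the adjusted p ran from 0.00216 to 0.175. Alx4 and Dlx5 stood in opposite order in the mesenchymes: per kb, Alx4 was 0.00503 to 0.0196 times Dlx5 in parotid mesenchyme and 3.61 to 7.83 times Dlx5 in submandibular mesenchyme.

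Alx1 (chr10:102998707-103030215, minus strand), needed in mouse for normal head development, was near absent but for 1 library. It had 0.125, 0, 0 and 0.192 CPM in parotid epithelium, 0.315, 0.0391, 0.0521 and 0.351 CPM in submandibular epithelium, and 0.108, 0, 0 and 0.281 CPM in parotid mesenchyme. In submandibular mesenchyme it had 0.211, 0, 0.214 and 5.85 CPM. Submandibular mesenchyme 4 held 104 of the 112 Alx1 counts of its group. Osteoblast markers, named here after their values were seen, were uneven in that library. Runx2, a factor needed for bone, had 1.05 to 2.92 CPM in parotid mesenchyme, against 4.22 CPM in submandibular mesenchyme 4 and 0.587 to 1.21 CPM in the other 3 of its group. Phex had 1.19 to 2.34 CPM in parotid mesenchyme, against 23.1 CPM in submandibular mesenchyme 4 and 36.6 to 41 CPM in the other 3, and Ibsp and Bglap were at most 0.324 CPM in all 8 mesenchymes. In submandibular mesenchyme 4, Alpl (3.6 CPM) and Dmp1 (1.41 CPM) lay within the range of the other 3. Spp1 (1.01 CPM) was the lowest of the group, and Sp7 (1.18 CPM) and Ifitm5 (0.732 CPM) were the highest. The whole osteoblast list summed to 35.4 CPM there, against 44.6 to 50 CPM in the other 3. Runx2 is not particular to bone here, as it had 10.9 to 29.2 CPM in the epithelia. What this library's sample held beyond the others was not tested.

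**Figure D5:**
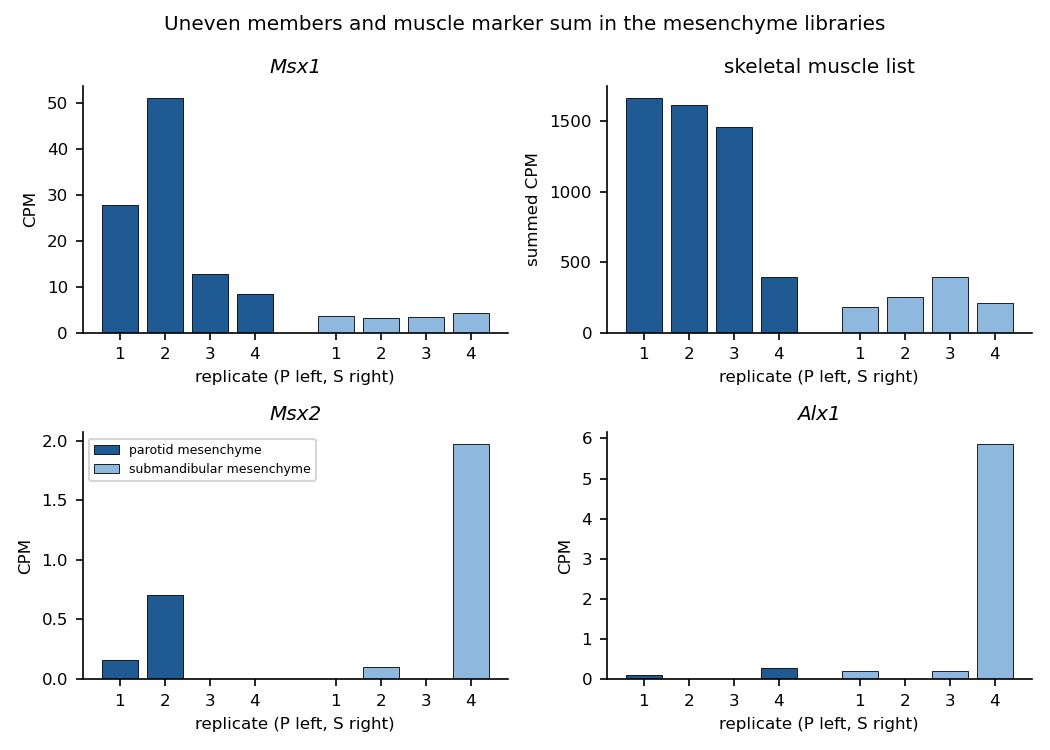
CPM of Msx1, Msx2 and Alx1 and summed CPM of the skeletal muscle marker list in each parotid mesenchyme (left, dark) and submandibular mesenchyme (right, light) library, on linear axes from 0. Msx1 and the muscle list are lowest in library 4 of the parotid group, and Msx2 and Alx1 are highest in library 4 of the submandibular group.

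Between the layers the members divided the same way in both glands. Dlx1, Dlx2, Dlx5, Dlx6, Msx1 and Alx4 were lower in epithelium than in mesenchyme, Dlx3 was higher, and Msx2 did not pass the threshold. That is 7 of 8 tested in parotid, where the calls covered 64.9% of all genes (31.4% higher and 33.5% lower in epithelium), and 7 of 8 in submandibular gland, where 67% were called (33.3% higher and 33.7% lower). The libraries of the layers did not overlap for the same 7 in each gland, against 57.5% of all genes in parotid and 62.3% in submandibular gland. The median log2 difference of the 8 was -5.90 in parotid and -6.20 in submandibular gland, and that of all genes tested was -0.0044 and 0.014. In parotid the differences ran from -7.63 for Dlx6 and -7.62 for Dlx1 to -4.91 for Alx4 among the lower genes. In submandibular gland they ran from -9.40 for Alx4 to -5.18 for Msx1. For Dlx6, with 1 count in submandibular epithelium, the level in epithelium was 144 times lower than in mesenchyme, with a 95% counting interval from 25.3 to 5744 times. Dlx3 was higher in epithelium by 3.09 ± 0.34 in parotid and by 4.44 ± 0.37 in submandibular gland (log2, SE), and the test of the difference gave an adjusted p of 0.0579 (edgeR).

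As shares of the mesenchymal level, the epithelial level in parotid was 0.479% for Dlx1, 1.67% for Dlx2, 0.459% for Dlx6, 1.65% for Msx1 and 3.22% for Alx4. In submandibular gland it was 0.898% for Dlx1, 1.15% for Dlx2, 0.612% for Dlx6, 2.26% for Msx1 and 0.157% for Alx4. Beside these stand the 1.56% and 2.08% of the summed mesenchymal identity list, so that, of the 6 mesenchymal members, those above the summed list's share were Dlx2, Msx1 and Alx4 in parotid and Msx1 in submandibular gland. Against the list's median log2 layer difference (-6.48 and -6.81), the same members stood above it in parotid. In submandibular gland Dlx2 (-6.54), Dlx5 (-5.96), Dlx6 (-6.45) and Msx1 (-5.18) did. The sorting thus depended on the measure. The part of mesenchymal RNA in the epithelial values was not tested.

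Genes with the profile closest to a member were sought by the root mean square difference of centred log2 CPM over the 16 libraries, among 12769 genes with at least 5 CPM in their highest group. Nearest to Dlx1 were Spock3 (0.54 log2 units), a gene with no symbol in the tables and Avpr1a, a vasopressin receptor, and its partner Dlx2 ranked 53. Nearest to Dlx2 were Fez1, C1qtnf7 and Pde1a, with Dlx1 at rank 49. Nearest to Dlx5 were AI606473, Shisa9 and Cdh10, a cadherin at 204.5 ± 40.1 CPM in parotid mesenchyme, against 9.66 ± 1.5 CPM in submandibular mesenchyme (SD, n = 4 each). Dlx6os1 ranked 10 and Dlx6 ranked 18 for Dlx5. Nearest to Dlx6 were Tmem26, Tbx3os1 and Tafa2.

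Nearest to Dlx3 were Ptpn3, Tmem238 and Nebl, with Dlx4 at rank 20. Nearest to Msx1 were Chrng, Trim55 and Neb, which encode an acetylcholine receptor subunit of muscle, a muscle ring finger protein and nebulin of the sarcomere. Nearest to Msx2 were Rasgef1b, Epb41l4a and Sntb1, at distances of 1.06 to 1.19 log2 units, the widest nearest distances among the members. Nearest to Alx4 were Klf14, Aff2 and Nr5a2, a nuclear receptor at 1.04 ± 0.309 CPM in parotid mesenchyme, against 121 ± 5.96 CPM in submandibular mesenchyme (SD, n = 4 each).

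The endothelin pathway that feeds Dlx5 and Dlx6 was mixed between the mesenchymes. Of its 10 tested genes, 5 were higher and 1 was lower in parotid, against 20.8% and 13.7% of all genes, with a median log2 difference of 0.29 against 0.04 for all genes. The receptor Ednra had 206 ± 9.76 CPM in parotid mesenchyme, against 70.6 ± 11.9 CPM in submandibular mesenchyme (SD, n = 4 each; 1.58 ± 0.24 log2, SE; edgeR, adjusted p = 8.39e-05). The activating protease Ece1 averaged 144 ± 23.9 CPM in parotid, against 85.8 ± 8.65 CPM in submandibular mesenchyme, and the transcription factor Mef2c averaged 100.3 ± 30.1 CPM in parotid mesenchyme, against 52.3 ± 7.5 CPM in submandibular mesenchyme. Mef2c also acts in muscle, and 10 of the 11 tested skeletal muscle markers were higher in parotid mesenchyme. The ligand Edn1 was not called, with 2.29 ± 1.42 CPM in the parotid mesenchyme, against 4.3 ± 0.55 CPM in that of the submandibular gland (edgeR, adjusted p = 0.107), and Edn3 was lower in parotid mesenchyme (29.9 ± 6.72 CPM) than in submandibular mesenchyme (70.8 ± 11.9 CPM). In the epithelium, the usual source of Edn1 in the arch, Edn1 averaged 6.38 ± 1.97 CPM in parotid, against 5.76 ± 0.83 CPM in submandibular gland (edgeR, adjusted p = 0.857). The 2 genes of the list called there were Edn3 and Mef2c, both higher in parotid, where 11.2% of all genes were called higher. Macrophage and leukocyte markers moved with them: 11 of 12 were higher, and the list summed to 22.1 to 36.7 CPM in parotid epithelium, against 1.3 to 12.9 CPM in submandibular epithelium. The part of muscle and of these cells in the Mef2c differences was not tested.

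Genes known to lie downstream of Dlx5 and Dlx6 in the lower jaw were mixed between the mesenchymes. Of 7 tested, 1 was higher and 3 were lower in parotid mesenchyme, against 20.8% and 13.7% of all genes (median log2 difference -0.06). Gsc, a homeobox gene of the lower arch, averaged 2.33 ± 1.02 CPM in parotid, against 30.8 ± 16.9 CPM in submandibular mesenchyme (-3.69 ± 0.51 log2, SE; edgeR, adjusted p = 3.44e-05). Hand2, a basic helix-loop-helix factor of the arch that is also on the neuron marker list, averaged 3.47 ± 0.499 CPM in parotid, against 12 ± 3.35 CPM in submandibular mesenchyme. Of 10 tested neuron markers, 3 were higher and 4 were lower in parotid mesenchyme, with a median log2 difference of -0.49. Their sum, 291 to 644 CPM in parotid, against 101 to 225 CPM in submandibular mesenchyme, was carried by Stmn2, with 178 to 470 CPM in parotid, against 5.01 to 27.2 CPM in submandibular mesenchyme. Dcx ran the other way, with 15 to 23.2 CPM in parotid, against 55.2 to 67.3 CPM in submandibular mesenchyme. Pitx1 was lower too, and Rgs5 was higher in parotid. Rgs5 also marks pericytes, and the list of smooth muscle and pericyte markers summed to 527 to 728 CPM in parotid, against 185 to 229 CPM in submandibular mesenchyme; the part of these cells was not tested. In the epithelium 4 of the 7 were lower in parotid (Dlk1, Rgs5, Pitx1 and Nkx3-2) and 0 were higher, against 9.72% and 11.2% of all genes. Dlk1, a membrane protein related to the Notch ligands, averaged 66.6 ± 28.6 CPM in the parotid epithelium, against 792.5 ± 525.5 CPM in that of the submandibular gland.

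Of 7 factors tied to the upper jaw, 3 were higher and 1 was lower in parotid mesenchyme, against 20.8% and 13.7% of all genes, with a median log2 difference of 1.12. Pou3f3, a POU factor of the maxillary part of the arch, had 49 ± 11.9 CPM in parotid, against 0.16 ± 0.0734 CPM in submandibular mesenchyme (8.24 ± 0.45 log2, SE; edgeR, adjusted p = 1.7e-09). Jag1, a Notch ligand of the upper jaw domain, averaged 198 ± 42 CPM in parotid, against 39.1 ± 4.88 CPM in submandibular mesenchyme, and Notch2 was also higher in parotid. Nr2f2, a nuclear receptor, was lower, with 336 ± 22.5 CPM in parotid, against 525 ± 69 CPM in submandibular mesenchyme.

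Among 22 genes of the BMP pathway that acts on Msx1, Msx2 and the DLX genes, 7 were higher and 4 were lower in parotid mesenchyme, against 20.8% and 13.7% of all genes, and the median log2 difference was 0.17. Bmp7 averaged 23.4 ± 5.35 CPM in parotid, against 167 ± 23.9 CPM in submandibular mesenchyme (-2.79 ± 0.18 log2, SE; edgeR, adjusted p = 9.04e-09), and Bmp5 was lower as well. The antagonist Nog and the target Id4 were higher: Id4 averaged 10.9 ± 5.48 CPM in parotid, against 2.65 ± 0.977 CPM in submandibular mesenchyme. Id3 had 285 to 355 CPM in parotid, against 111 to 201 CPM in submandibular mesenchyme. Smad1 had 192 to 242 CPM in parotid, against 84.9 to 108 CPM in submandibular mesenchyme. The mesenchyme libraries of Id1, Id2 and Bmp2 overlapped between the glands. In epithelium 4 were higher and 4 lower in parotid, against 11.2% and 9.72% of all genes. Id1, a direct BMP target, averaged 4.08 ± 1.27 CPM in the parotid epithelium, against 68.8 ± 24.1 CPM in that of the submandibular gland (-4.10 ± 0.26 log2, SE; edgeR, adjusted p = 3.83e-08). Bmp4 and Id3 were lower with it, and Bmp2 was higher, at 3.79 ± 0.482 CPM in the parotid epithelium, against 0.442 ± 0.309 CPM in that of the submandibular gland. The Id genes did not all run 1 way. Id2 had 371 to 423 CPM in parotid, against 196 to 282 CPM in submandibular epithelium, and the libraries of Id4 overlapped.

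Paired-type relatives of the ALX genes were mixed. Of 4 tested in mesenchyme, 2 were higher in parotid and 1 was lower, against 20.8% and 13.7% of all genes, with a median log2 difference of -0.02. Shox2, a factor of limb, palate and heart, averaged 154 ± 22.2 CPM in parotid, against 29 ± 4.44 CPM in submandibular mesenchyme (2.45 ± 0.26 log2, SE; edgeR, adjusted p = 2.96e-06). Prrx2 was higher in parotid as well, and Pitx1 was the lower one, with 220 ± 63.8 CPM in parotid, against 467 ± 60.2 CPM in submandibular mesenchyme. Prrx1, a general factor of facial mesenchyme, averaged 412 ± 48.5 CPM in parotid, against 613.5 ± 55.8 CPM in submandibular mesenchyme and was not called (edgeR, adjusted p = 0.499).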

How the data were processed

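The 16 libraries came from SMART-Seq and Nextera kits, per the labels' protocols, which keep no record of strand. The submitters' processing notes name STAR 2.5.2a, edgeR and build GRCm38; no counter or annotation is given in the sources used here. The authors deposited raw counts for 48709 genes and 92 spike-in features, the counts of 23400 of these features with values equal to the raw table, and a normalized signal, named CPM by the table, for the same 23400. Levels are that deposited CPM signal; tests used the raw counts without spike-ins (0.00115 to 0.00651% of counts). Exon lengths for values per kb came from GENCODE M21.

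With edgeR 4.0.16 in R 4.3.3, filterByExpr kept 18191 genes. A quasi-likelihood model (robust, TMM) with 4 group terms was fitted to all 16 libraries, and 5 contrasts were tested with Benjamini-Hochberg adjustment over all genes kept. Own TMM scaling differed from the deposited CPM by at most 4.26%. Fitted fold changes include edgeR's prior count. The SEs given with them are the absolute log2 fold change divided by the square root of the test's F statistic. The 95% intervals are built from these SEs with a t distribution on the residual degrees of freedom. Both are approximate, and an interval near the threshold can differ from its p-value. The fit was tested on simulated data. In 24 pairs of libraries within groups, counts differed by more than sampling noise (chi-square per gene 9.56 to 47.9). Same-numbered libraries deviated together only weakly, and the labels do not say which layers came from the same glands, so no pairing was modelled. Alternatives were other scalings, filters, fits to fewer libraries, a replicate block, limma-voom (limma 3.58.1) and DESeq2 1.42.0.

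The members, gene lists and tests were chosen with earlier results of these data known. Named were all 9 members, their family and antisense genes, up to 4 called genes of each pathway list per comparison with the largest changes, uncalled list genes where of use, and the 3 genes closest in profile to each member. Id2 and Id4 in epithelium and Id1, Id2 and Id3 in mesenchyme were added to show the whole Id family. Smad1 and Bmp2 in mesenchyme were added after their values were seen. Some relatives, pathway genes and markers are not reported here, and counts and sums over lists leave them out. Counting intervals cover counting error only. SDs are over the 4 libraries of a group.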

Additional observations from a re-analysis of the deposited data

Results flagged for a closer look

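In 4 of 36 sets of 4 libraries (9 members in 4 groups) 1 library lay far from the other 3 by Dixon's criterion, in each case the highest. The criterion's rate of about 1 in 20 is for normally distributed values. It does not hold for counts near 0, where a set with 1 positive value and 0 elsewhere is always flagged. The 4 sets are therefore not compared with that rate. In submandibular mesenchyme 4, Alx1 had 5.85 CPM (104 counts) against 0 to 0.214 CPM in the other 3, and Msx2 had 1.97 CPM (35 counts) against 0 to 0.103 CPM. In submandibular epithelium 3, Dlx2 had 1.51 CPM (29 counts) against 0.035 to 0.156 CPM. In submandibular epithelium 1, Dlx6 had 0.035 CPM, which is 1 count, and the other 3 had 0.

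Alx4 differed between the glands in mesenchyme and not measurably in epithelium. The gland difference in epithelium minus that in mesenchyme was 4.49 on the log2 scale (edgeR, adjusted p = 0.0135, with 21 counts in all in parotid epithelium and 26 in submandibular epithelium).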

How the results depend on the processing

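Of 1018 log2 fold changes recomputed for the tested members, 990 kept their direction and their side of the threshold, and none of the 17 that changed sign had been called. Dlx5, Dlx6, Msx1 and Alx4 in mesenchyme and Dlx5 in epithelium stayed called in all 26 settings. Genes called between the epithelia numbered 3801, and 2452 to 4540 with each library left out in turn (lowest without submandibular epithelium 1). Members whose gland difference was unequal in the layers numbered 1, 2 with DESeq2 and 0 to 2 with each library left out; the added one was Dlx3, with an adjusted p of 0.0262 in DESeq2. With library totals alone the median of all genes between the mesenchymes was -0.137 (log2) against 0.0358 with TMM, and 59.8% of genes called for unequal gland differences were higher, against 41.5%. Signs changed between the epithelia for Dlx2 (-0.49), which ran from -1.53 to 1.33 (without submandibular epithelium 3) as each library was left out, for Dlx3 (0.08), from -0.0662 to 0.479, and for Alx4 (-0.14), from -1.27 to 1.09 and at 0.376 with limma-voom. Between the mesenchymes they changed for Dlx1 (-0.15), from -0.333 to 0.0262 (without parotid mesenchyme 4), and for Msx2 (-1.26), from -3.24 to 2.41 (without submandibular mesenchyme 4); with both these libraries left out, a choice made after seeing the data, they were 0.0467 and 2.84. Msx2 between the parotid layers (-0.81) ran from -1.96 to 1.18. The unequal gland difference changed sign for Dlx1 with limma-voom (0.128), and with 1 library left out for Dlx2 (-0.376 to 2.49), Dlx5 (-0.914 to 0.338), Dlx6 (-1.72 to 0.269) and Msx2 (-5.07 to 0.596). The cause of these changes was not tested. Same-numbered libraries of compared groups correlated at -0.117 to 0.218 in their deviations, and at most 2 of 4 correlated best with their own number. Whether libraries were paired in another order was not tested, so a pairing of the layers is not excluded. With a replicate block the calls were 3980 between the epithelia, 6343 between the mesenchymes, 11803 and 12176 between the layers and 3871 for the unequal difference, and no member call changed. At these depths, members with few counts have wide intervals: that of Msx2 between the epithelia ran from -5.76 to 0.45 (log2, 95%).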
